A study of Mus musculus with 87 samples.

Results

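Mouse embryonic stem cells (ESC) of the line 129-B13 in which exon 4 of Suz12 had been deleted (Deltaex4) were compared with wild-type cells of that line (WT) by RNA-seq of polyadenylated RNA. The comparison used 5 of the 87 samples of the series, and of its 32 RNA samples: 2 Deltaex4 and 3 WT, all grown in 20% serum with LIF, the cytokine that keeps mouse ESC undifferentiated. Genes were kept where baseMean, the mean over the 5 samples of reads divided by the library's size factor, was at least 10 in the authors' deposited table, which left 14587 of 26171 gene symbols. Whether the Deltaex4 cells were 1 clone, and whether samples of a group came from separate cultures, is not given in the sources used here, so that the p-values measure only the spread between these samples.

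Suz12 is a core subunit of Polycomb repressive complex PRC2, in which the methyltransferases Ezh2 or Ezh1, with Eed and the histone-binding proteins Rbbp4 and Rbbp7, place methyl groups on lysine 27 of histone H3 (H3K27me3). In ESC this mark lies over the CpG-rich promoters of many developmental regulators, whose transcription is kept low until differentiation. Exon 4 of Suz12 is an alternatively spliced exon, so that wild-type cells can make a longer and a shorter protein, and deleting it leaves the shorter form. The labels list the deletion among the Suz12 knock-outs.

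The reads of each library were recovered from the deposited means (14558 of the 14587 genes), and the libraries are called WT a, b and c and Deltaex4 a and b, since they could not be tied to replicate numbers. Over the recovered genes they held between 23633153 and 29078223 reads. The 8 ESC markers, such as Pou5f1 and Nanog, were present in all 5 libraries, with sums between 117452 and 151014 normalised reads in WT, and 162827 in Deltaex4 a and 108111 in Deltaex4 b. Summed over 6 endoderm markers, in contrast, WT c had 8392 normalised reads against 414 in WT a, 355 in WT b, 1010 in Deltaex4 a and 449 in Deltaex4 b. Deltaex4 a stood apart over all genes: 12.3% of genes lay more than 1 log2 unit from the WT mean there, against 3.19% in Deltaex4 b. The SD of the log2 difference between libraries (baseMean of at least 100) was 0.63 between the Deltaex4 libraries and 0.31, 0.50 and 0.63 between the pairs of WT libraries, and the closest pair was WT a with Deltaex4 b (0.30). The deposited fold changes rest on both Deltaex4 libraries and on WT b and WT c: for genes with 1 read in WT a alone the authors' deposited table has a median of 0.06 log2 units, against -1.22 for WT b, -1.23 for WT c, 1.35 for Deltaex4 a and 1.34 for Deltaex4 b.

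The authors' deposited table (DESeq2) called 0 of the 14587 genes (0%) at an adjusted p of 0.05, and its smallest adjusted p was 0.99998. The unadjusted p was under 0.05 for 134 genes, 0.919% of those tested against the 5% that unchanged groups would give, with 67 genes higher in Deltaex4 (0.459%) and 67 lower (0.459%). The deposited statistic, the log2 fold change over its standard error, was narrower than a standard normal, with a robust SD of 0.56. The median log2 fold change over all genes was -0.01, with quartiles of -0.20 and 0.21, and the median standard error was 0.48, so that a gene at that error needs a log2 change of 0.94 to reach an unadjusted p of 0.05. Refitting the recovered reads with limma also called no gene, either with the 5 libraries (531 genes with an unadjusted p under 0.05) or with 15 libraries of 7 ESC groups (638 genes). The number under that p depends on the pairing and the libraries: in limma it was 79 with the authors' pairs as a replicate block, 1523 with the crossed pairs and 1667 without Deltaex4 b. The smallest limma adjusted p in the 15-library fit was 0.347, shared by Fgf18, a secreted growth factor, and Elavl2, a neuronal RNA-binding protein, both named after their values were seen. Fgf18 had 52.0, 91.3 and 32.9 normalised reads in WT a, b and c and 5.11 and 7.42 in Deltaex4 a and b. Elavl2 had 926, 892 and 911 in WT and 403 and 488 in Deltaex4. In each of these genes both Deltaex4 libraries lay below every WT library, as was the case for 10.7% of all genes, while in 9.72% both lay above. With no gene called, the differences that follow are described as higher or lower values.

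**Figure D1:**
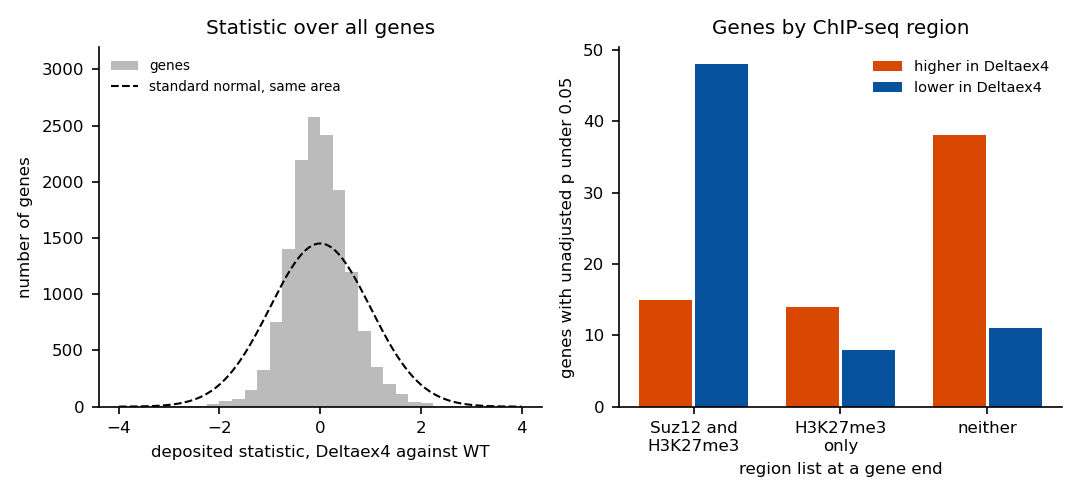
Left, the deposited statistic (Deltaex4 against WT) over genes with recovered reads, in bins of the statistic on the x axis with the number of genes on the y axis, and a standard normal of the same area (dashed); the bars crowd around 0 inside the curve (robust SD 0.56). Right, the number of genes with an unadjusted p under 0.05 by the ChIP-seq region list at a gene end, split by direction: 48 of the 67 lower genes stand in the class with both regions.

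The targeted gene had 4318, 5586 and 8384 normalised Suz12 reads in WT a, b and c and 2103 and 3774 in Deltaex4 a and b. The groups did not overlap, and the WT libraries themselves spanned a wide range. Suz12 had a log2 fold change of -1.28 ± 0.40 (SE) in the authors' deposited table (unadjusted p 0.0013, adjusted p 0.99998). These reads are counted over the whole gene and do not separate exon 4 from the other exons, so they check the label only in part. Of the 6 PRC2 core subunits, 4 lay below 0 and 2 above, with a median of -0.34 against -0.01 for all genes, and 2 (Suz12 and Rbbp7) were lower in both Deltaex4 libraries than in all WT libraries (33.3%, against 10.7% of all genes). Suz12 is the targeted gene itself. Except for Ezh1, the core subunits stood in the highest 10% of genes by baseMean. In that 10% the share was 20.2% and the median -0.16, so the list's share is not read as a result about PRC2. The median of the core subunits from the WT mean was -0.48 in Deltaex4 a and -0.13 in Deltaex4 b. Ezh2, the main methyltransferase of ESC, had 7323, 6169 and 6111 normalised reads in WT and 6106 and 7584 in Deltaex4, which overlap. Eed, which binds the methylated histone tail, had 6089, 6866 and 7352 in WT and 4585 and 6193 in Deltaex4, with a deposited log2 fold change of -0.41 ± 0.40. Rbbp7 had 13216, 17193 and 16508 in WT and 10887 and 12354 in Deltaex4, and -0.54 ± 0.39 in the authors' deposited table.

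The 9 accessory subunits, which define the 2 forms of PRC2, had 6 members above 0 and a median of 0.18, but the median from the WT mean was 0.21 in Deltaex4 a and -0.11 in Deltaex4 b, and without WT b it was -0.00. Aebp2, a subunit of the form that also holds Jarid2, was the 1 member of 9 whose groups did not overlap (11.1%, against 9.72% of all genes with both Deltaex4 libraries higher), with 2212, 2925 and 2261 normalised reads in WT and 4318 and 2971 in Deltaex4 (log2 fold change 0.48 ± 0.40 in the authors' deposited table). Jarid2 itself had 11116, 16244 and 18000 in WT and 11677 and 9723 in Deltaex4, which overlap in WT a. Of 22 PRC1 subunits, the complex that binds H3K27me3 through its Cbx proteins, 21 were tested, 15 lay below 0, and the median was -0.11. Of all 14587 genes 7596 lay below 0. The PRC1 median from the WT mean was -0.02 in Deltaex4 a and -0.03 in Deltaex4 b, and without WT b it was -0.03.

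The ChIP-seq part of the series entered as 2 lists of regions from DiffBind, 2865 for Suz12 and 6882 for H3K27me3, for which the sources used here do not state the direction of change or the group compared with WT. A gene was placed at a region where 1 of its ends lay within 2500 bp. Genes at both kinds of region were 1583 of the 14584 with a position (10.9%), and they made up 48 of the 67 genes that were lower with an unadjusted p under 0.05 (71.6%) and 15 of the 67 that were higher (22.4%). Their median log2 fold change was -0.12, with 921 of 1583 below 0, against -0.02 for the 11266 genes at neither region. Without WT c, the library with endoderm RNA, it was -0.12, and over genes with a baseMean of at least 100 it was -0.03. In 253 of them (16%) both Deltaex4 libraries were below every WT library, against 10.7% of all genes, and in 107 (6.76%) both were above, against 9.72%. Genes at an H3K27me3 region alone lay the other way, with a median of 0.12 and 1071 of 1715 above 0.

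The contrast between the classes was widest among genes with few reads. At a baseMean from 10 to 30, the median was -0.27 for the 355 genes at both regions and 0.29 for the 1041 genes at neither. From 30 to 100 these medians were -0.18 and 0.22, from 100 to 300 they were -0.07 and 0.10, and from 300 to 1000 they were -0.00 and 0.02. Above 1000 the order turned, with -0.03 for genes at both regions and -0.11 for genes at neither. For genes at H3K27me3 alone the medians in the same ranges, from low to high baseMean, were 0.26, 0.30, 0.16, 0.11 and 0.01. In the lowest range they thus lay no higher than genes at neither region, and above it they lay higher. By width of the Suz12 region, in 3 groups of genes, the deposited median was -0.05 with regions of 844 to 1873 bp, -0.12 with regions of 1874 to 2797 bp and -0.19 with regions of 2803 to 67241 bp. This order did not hold in Deltaex4 b, where the medians from the WT mean were -0.12, -0.21 and -0.14, nor without WT c, where they were -0.05, -0.18 and -0.15. Measured from the mean of the 3 WT libraries, genes at both regions had a median of -0.08 in Deltaex4 a and -0.15 in Deltaex4 b. For genes at H3K27me3 alone, the median was 0.21 in Deltaex4 a and -0.01 in Deltaex4 b, so that the upward shift stood in 1 library.

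Other comparisons of the series gave the following medians for genes at both regions. In the ESC tables, which share the WT libraries with Deltaex4, the median was 0.66 for the full Suz12 knock-out, 0.53 and 0.10 for that knock-out carrying the long or the short isoform, and 0.36 for cells with constitutive exon 4 (CSex4), against -0.12 in Deltaex4. In neuronal precursors (NP) derived from these cells, with WT libraries of their own, the median was 0.19 in Deltaex4 and -0.40 in CSex4. Each median is over genes with a baseMean of at least 10 in its own table, and their differences were not tested.

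**Figure D2:**
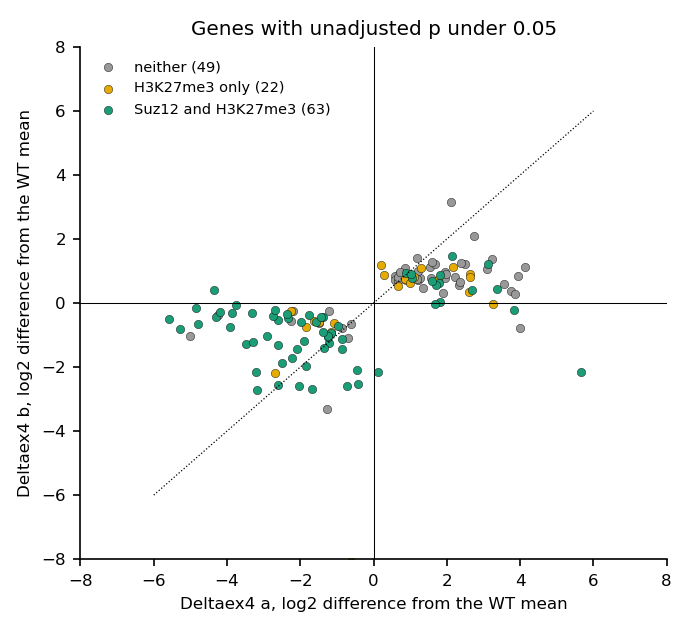
Each point is a gene with an unadjusted p under 0.05; the axes give its log2 difference from the mean of the 3 WT libraries in Deltaex4 a (x) and Deltaex4 b (y), with a pseudocount of 1, the colour gives the region class with its number of genes, and the dotted line marks equal differences. Of the 67 lower genes 52, and of the 67 higher genes 54, lie farther from 0 in Deltaex4 a.

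Among genes with a baseMean of at least 100, 11 of the 12 with the lowest statistics stood at both regions, the other being Suz12. The upstream bases of 3 of them, and of Pth1r, are given because CpG-rich promoters are the usual sites of PRC2. They are the genes with the lowest statistics among those at both regions whose groups did not overlap and for which RefSeq holds a start near the gene's end. Each line is the 250 bases before the start in RefSeq's GRCm38.p6, 5′ to 3′ on the gene's strand, with CG, which reads alike on both strands, in capitals.
Neurod1: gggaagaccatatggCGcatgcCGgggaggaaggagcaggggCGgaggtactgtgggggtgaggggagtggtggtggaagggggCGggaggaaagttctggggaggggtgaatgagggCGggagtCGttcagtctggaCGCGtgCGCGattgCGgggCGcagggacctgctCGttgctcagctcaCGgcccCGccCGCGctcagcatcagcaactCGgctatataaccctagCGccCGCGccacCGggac
Hs6st2: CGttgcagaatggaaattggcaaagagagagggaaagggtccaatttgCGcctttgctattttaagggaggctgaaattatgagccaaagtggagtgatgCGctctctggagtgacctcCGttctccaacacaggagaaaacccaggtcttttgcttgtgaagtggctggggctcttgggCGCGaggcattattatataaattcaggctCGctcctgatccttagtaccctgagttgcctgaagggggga
Map7d2: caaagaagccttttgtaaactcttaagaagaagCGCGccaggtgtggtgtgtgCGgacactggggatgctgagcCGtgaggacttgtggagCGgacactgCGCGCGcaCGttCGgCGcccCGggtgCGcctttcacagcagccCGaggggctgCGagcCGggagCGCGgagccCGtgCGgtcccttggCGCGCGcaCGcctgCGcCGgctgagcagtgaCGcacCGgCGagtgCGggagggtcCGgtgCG
Pth1r: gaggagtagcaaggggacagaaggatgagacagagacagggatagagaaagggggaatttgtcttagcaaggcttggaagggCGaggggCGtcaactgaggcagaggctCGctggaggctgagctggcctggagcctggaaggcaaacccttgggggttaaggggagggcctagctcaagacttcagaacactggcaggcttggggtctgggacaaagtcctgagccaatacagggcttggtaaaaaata
Neurod1 (chr2:79456637-79456886, minus strand) has 22 CG, a number that 14.8% of 32851 RefSeq promoters of the same length reach. Map7d2 (chrX:159414322-159414571, plus strand) has 32 (4.58%), Hs6st2 (chrX:51681603-51681852, minus strand) has 7 (46.3%) and Pth1r (chr9:110747146-110747395, minus strand) has 3 (71.0%), against a median of 6 over all promoters. Within these 250 bases the 4 genes therefore span both CpG-rich and CpG-poor sequence. Genes were placed at regions by either end, and bases after the start were not counted. A region therefore need not lie over the bases printed here.

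The genes with the lowest statistics are described one by one, and no theme was tested for them. Neurod1, a proneural transcription factor, had 158, 135 and 327 normalised reads in WT a, b and c and 16.3 and 78.4 in Deltaex4 a and b, with a log2 fold change of -2.52 ± 0.65 and an unadjusted p of 9.81e-05 in the authors' deposited table. Nefl, the light neurofilament subunit of axons, had 858, 1304 and 841 in WT and 66.4 and 783 in Deltaex4 (-2.17 ± 0.71 in the authors' deposited table). The groups of both genes were apart, but by ratio the 2 Deltaex4 libraries differed more from each other than Deltaex4 b did from the nearest WT library. Closer Deltaex4 values were found for Nefh, the heavy neurofilament subunit, with 338, 634 and 512 in WT and 202 and 234 in Deltaex4. Map7d2, a microtubule-binding protein, had 496, 690 and 440 in WT and 141 and 233 in Deltaex4. Ptch1, the receptor and target gene of Hedgehog signalling, had 8210, 8669 and 8023 in WT and 3167 and 4415 in Deltaex4, for a log2 fold change of -1.16 ± 0.41 in the authors' deposited table. In these 3 genes every Deltaex4 value was under the lowest WT value.

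Ccnd2, which encodes cyclin D2, had 163, 260 and 336 normalised reads in WT and 145 and 39.2 in Deltaex4, and here Deltaex4 b was the lower library. Crmp1, a regulator of axon growth, had 1841, 2194 and 1800 in WT and 142 and 1837 in Deltaex4, so that its deposited log2 fold change of -1.95 ± 0.68 came from Deltaex4 a. Frem2, a protein of the extracellular matrix, had 1786, 1170 and 1915 in WT and 157 and 1284 in Deltaex4, and Bhlhe41, a basic helix-loop-helix repressor, had 152, 88.5 and 221 in WT and 2.04 and 101 in Deltaex4. Those 3 groups overlapped in Deltaex4 b. Of the 12 lowest genes, 9 were lower in both Deltaex4 libraries than in all WT libraries, against 11.4% of all genes with a baseMean of at least 100. The genes were ranked by a statistic from these same libraries, so such a count follows in part from the ranking. Of the 12, 11 lay farther from the WT mean in Deltaex4 a.

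The neural list gave a mixed picture: of 22 genes 12 were tested, 7 lay below 0 and 5 above, and the median was -0.21. Ina, the neuronal intermediate filament internexin, had 2177, 3154 and 2495 normalised reads in WT and 831 and 1737 in Deltaex4, with a log2 fold change of -1.22 ± 0.47 in the authors' deposited table. Ina and Nefl, 2 of the 12 tested, were lower with an unadjusted p under 0.05, against 67 of all 14587 genes (0.459%). The list was chosen with earlier results of these data known. Nes, the intermediate filament of neural progenitors, had 1898, 2221 and 309 in WT and 201 and 2897 in Deltaex4, a range that ran across both groups. Sox1, an early neural transcription factor, had 30.1, 45.2 and 67.9 in WT and 61.3 and 175 in Deltaex4. The list's median from the WT mean was -0.82 in Deltaex4 a and 0.05 in Deltaex4 b. Wnt pathway genes had 9 of 13 tested members below 0 (median -0.32), against 7596 of all 14587 genes. Over Wnt members with a baseMean of at least 100 the median was -0.02. Of 17 mesoderm regulators 8 were tested, and 6 of these lay above 0 (median 0.49), against 6991 of all genes. Their median was 0.88 in Deltaex4 a and -0.44 in Deltaex4 b. With no minimum of baseMean the list's deposited median was 0.06, so no direction is read from it.

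The 12 highest statistics among genes with a baseMean of at least 100 belonged to genes of varied function, 2 of them at both regions and 7 at neither. Irf8, an interferon-regulatory transcription factor, had 69.3, 61.2 and 40.3 normalised reads in WT and 349 and 106 in Deltaex4, for a log2 fold change of 1.97 ± 0.67 in the authors' deposited table. Padi2, which converts arginine residues of proteins to citrulline, had 213, 180 and 243 in WT and 614 and 463 in Deltaex4, and Emp1, a membrane protein of epithelia, had 308, 299 and 313 in WT and 1552 and 454 in Deltaex4. These groups did not overlap. Calcoco2, an autophagy receptor with the highest statistic, had 569, 758 and 125 in WT and 1455 and 734 in Deltaex4, and so overlapped in WT b. Meis2, a homeobox factor, had 69.3, 55.5 and 46.7 in WT and 812 and 48.8 in Deltaex4, where a single library was high. All 12 genes lay farther from the WT mean in Deltaex4 a, with a median of 2.66 there and 0.76 in Deltaex4 b. In 7 both Deltaex4 libraries exceeded every WT library, against 8.37% of all genes with that baseMean. This count too follows in part from the ranking.

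**Figure D3:**
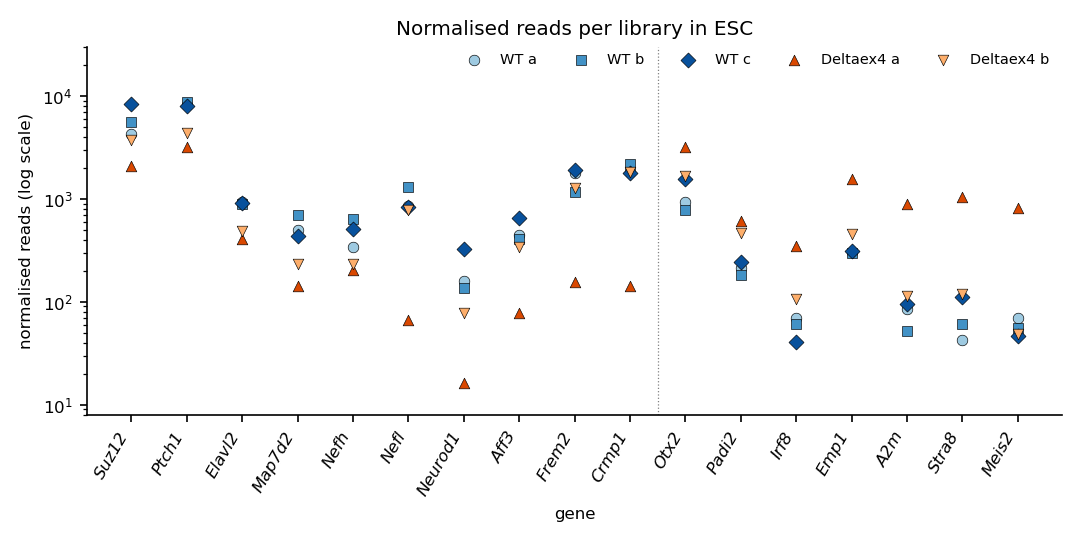
Normalised reads (y axis, log scale) of 17 genes (x axis) in each of the 3 WT and 2 Deltaex4 libraries, with genes lower in Deltaex4 left of the dotted line and genes higher right of it. Ptch1, Elavl2, Map7d2 and Nefh show both Deltaex4 libraries below all WT libraries, while Crmp1, Frem2 and Meis2 depart in Deltaex4 a alone.

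Pluripotency genes had medians near 0. The 12 core pluripotency genes had a median of -0.10, with 9 below 0, but 0.14 from the WT mean in Deltaex4 a, -0.23 in Deltaex4 b and 0.02 without WT c, and none had an unadjusted p under 0.05. Pou5f1, the central factor of the pluripotent state, had 24789, 28056 and 28342 normalised reads in WT and 26066 and 26349 in Deltaex4 (log2 fold change -0.11 ± 0.39 in the authors' deposited table). Sox2, its partner on DNA, had 10525, 9583 and 11332 in WT and 12099 and 8925 in Deltaex4. The 15 naive pluripotency genes had a median of 0.04, from 0.43 above the WT mean in Deltaex4 a to -0.27 in Deltaex4 b. Tbx3, a naive-state factor, had 579, 640 and 1315 in WT and 5994 and 707 in Deltaex4, and Klf4 had 2542, 3226 and 4328 in WT and 10044 and 2576 in Deltaex4. Both were high in Deltaex4 a and within the WT range in Deltaex4 b.

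Of 13 formative and primed genes, which mark the step after the naive state, 12 lay below 0, with a median of -0.35. The exception was Otx2, a homeobox factor of that step and of the forebrain, with 931, 786 and 1576 normalised reads in WT and 3171 and 1684 in Deltaex4 (log2 fold change 1.05 ± 0.51, unadjusted p 0.0384 in the authors' deposited table). Dnmt3l, a cofactor of the de novo DNA methyltransferases, had 12716, 15744 and 19519 in WT and 10323 and 9962 in Deltaex4 (-0.79 ± 0.40, unadjusted p 0.0457 in the authors' deposited table), so that its groups did not overlap. Dnmt3b, one of those methyltransferases, had 13790, 27930 and 9312 in WT and 3616 and 19203 in Deltaex4, with Deltaex4 b inside the WT range. Otx2 and Dnmt3l were the 2 members of the list whose groups did not overlap, 7.69% in each direction against 9.72% of all genes higher and 10.7% lower, so that the share is no larger than over all genes, and the list's median was -0.67 in Deltaex4 a and 0.13 in Deltaex4 b.

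Germline genes, many of which are silenced by promoter DNA methylation or by Polycomb-related complexes in somatic cells, had 18 of 19 tested members above 0 and a median of 0.53. The median was 1.31 in Deltaex4 a and -0.02 in Deltaex4 b, and 4 members (21.1%) were higher in both Deltaex4 libraries than in all WT libraries, against 9.72% of all genes. Stra8, which starts meiosis and is induced by retinoic acid, had 42.9, 61.2 and 112 normalised reads in WT and 1034 and 120 in Deltaex4, with a log2 fold change of 2.09 ± 0.76 and an unadjusted p of 0.00571 in the authors' deposited table. Dazl, a germ cell RNA-binding protein, had 166, 121 and 208 in WT and 460 and 159 in Deltaex4, which overlap. Without Deltaex4 a the germline median was -0.02, and without WT c it was 0.93. Of the 2-cell-like list 6 of 13 members reached the minimum of reads, and the members that did so through Deltaex4 a had to lie above 0, so that no count or median is read from them. Zscan4a was at 13.7, 9.41 and 0 normalised reads in WT and 84.7 and 2.12 in Deltaex4. Zscan4 copies are nearly identical, so that the count of a single one is uncertain. These genes mark a rare ESC state, and Zscan4a was high in Deltaex4 a and near or at 0 in WT c and Deltaex4 b. In bulk RNA, more cells of a state and more RNA per cell cannot be told apart.

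The endoderm list moved with WT c. Of 14 members tested 13 lay below 0, and the deposited median was -1.29, the lowest of the lists. Gata6, a master regulator of primitive endoderm, had 11.9, 9.41 and 425 normalised reads in WT a, b and c and 57.2 and 7.42 in Deltaex4 a and b. Lama1, a laminin chain of basement membrane, had 2628, 2318 and 24423 in WT and 4526 and 2940 in Deltaex4. From the recovered reads the list's median was -0.63 with all 3 WT libraries, 0.60 without WT c and 0.19 without Deltaex4 b. Its direction therefore rests on WT c and on Deltaex4 b. The imprinted RNAs Meg3, Rian and Mirg, which share a locus, were likewise high in WT c, with Rian at 3.65, 2.82 and 1593 in WT and 19.4 and 4.24 in Deltaex4. In NP, with WT libraries of their own, Meg3 was called lower in Deltaex4 in the authors' deposited table (DESeq2), at -4.14 ± 0.99 (adjusted p 0.0394). That table gives -2.685 ± 0.728 for Rian and -3.49 ± 1.87 for Mirg. Among 23 tested imprinted genes 17 lay below 0 (median -0.26), and Mest, a paternally expressed gene, had 3415, 3760 and 1849 in WT and 1892 and 9.54 in Deltaex4, so that its deposited log2 fold change of -4.27 ± 1.996 came from Deltaex4 b.

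Targets of p53, the factor that responds to DNA damage, had the largest share of members with groups apart among the 39 lists. Of 15 genes, all tested, 13 lay below 0, the median was -0.31, and in 11 (73.3%) both Deltaex4 libraries were below every WT library, against 10.7% of all genes. That share rose with expression, to 16.1% and 20.2% of genes in the next highest and the highest 10% by baseMean. No gene of the p53 list had an unadjusted p under 0.05. Zmat3, a p53-induced RNA-binding protein, had 3277, 3939 and 4174 normalised reads in WT and 2307 and 2763 in Deltaex4, with a log2 fold change of -0.68 ± 0.40 in the authors' deposited table. Ccng1, cyclin G1, had 5251, 6404 and 5511 in WT and 4038 and 4835 in Deltaex4. Mdm2, the ubiquitin ligase that degrades p53, had 3062, 3567 and 3388 in WT and 2620 and 3011 in Deltaex4. Each of these log2 differences was at most 0.68, and the groups did not overlap. Pmaip1, which encodes the pro-apoptotic protein Noxa, lay the other way, with 1828, 2127 and 2132 in WT and 4159 and 2292 in Deltaex4. The list's median from the WT mean was -0.31 in Deltaex4 a and -0.15 in Deltaex4 b, and with each library left out in turn it stayed between -0.31 and -0.15.

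Several housekeeping lists had small medians with most members on 1 side. Mitochondrial ribosomal protein genes had 65 of 78 below 0 (median -0.14), proteasome subunits 34 of 39 (-0.15), heat shock genes 12 of 13 (-0.34) and cell cycle genes 24 of 30 (-0.10), while cytosolic ribosomal protein genes had 63 of 84 above 0 (0.05). Of all 14587 genes 7596 lay below 0. Among the highest 10% of genes by baseMean 1171 of 1459 did (median -0.16), and among the next 10% 1037 of 1459 (-0.11). The lists were not matched to genes of like expression. In the mitochondrial ribosomal, proteasome and cholesterol synthesis lists, WT c and Deltaex4 a lay below WT a, WT b and Deltaex4 b: the proteasome medians, for example, were 0.03, 0.24 and -0.30 in WT a, b and c and -0.36 and -0.00 in Deltaex4 a and b. The integrated stress response list, genes induced by the factor Atf4, showed the reverse, with medians of -0.42, -0.26 and 0.77 in WT and 0.85 and -0.11 in Deltaex4. The medians of the WT and Deltaex4 libraries therefore overlapped in these lists. The list of replication-dependent histone genes, matched by symbol, had 22 of 28 above 0 and a median of 0.43. Its median from the WT mean was 0.26 in Deltaex4 a and 0.36 in Deltaex4 b. The list also held H1f0 (0.42) and H1f10 (0.43), linker histones that are not replication-dependent and whose values lie at the list's median. RNAs of replication-dependent histone genes mostly lack a polyA tail, and their near-identical copies make single counts uncertain. Across the 39 lists with at least 3 members tested, 15 medians were above 0 and 24 below.

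**Figure D4:**
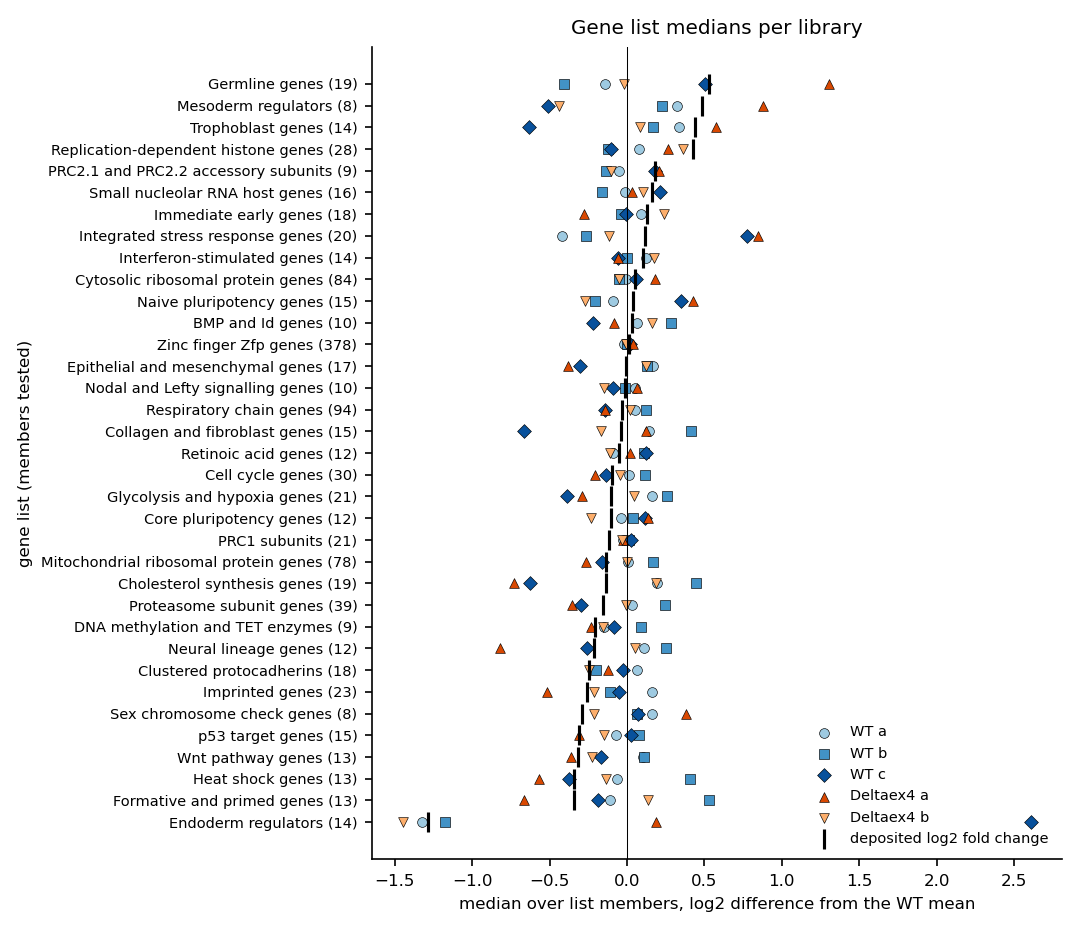
For each gene list with at least 8 members tested (y axis, number in brackets), the median over members of the log2 difference from the mean of the 3 WT libraries (x axis) is shown per library, with the deposited median log2 fold change as a black bar. In the endoderm list WT c stands alone at 2.61, and in the p53 list both Deltaex4 libraries lie left of all WT libraries.

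Chromosome 8 had the highest median of the chromosomes. Of its 609 genes with at least 100 normalised reads on average, 491 lay above 0 in Deltaex4 against WT (median 0.20), while the other autosomes lay between -0.08 and -0.01. In 183 of the 609 (30.05%) both Deltaex4 libraries were above every WT library, against 8.37% of all genes with that baseMean, and in 6 (0.985%) both were below, against 11.4%. From the WT mean, the median of chromosome 8 was 0.04, 0.07 and -0.11 in WT a, b and c and 0.18 in both Deltaex4 a and Deltaex4 b. The shift ran along the whole chromosome, with medians between 0.16 and 0.29 in 7 windows of 20 Mb. In NP the median of chromosome 8 was 0.18 in Deltaex4, 0.16 in CSex4 and -0.26 in the Suz12 knock-out. The other autosomes lay between -0.04 and 0.06 in NP Deltaex4, between -0.14 and 0.23 in NP CSex4 and between -0.16 and 0.13 in the NP knock-out. In the other ESC tables, which share the WT libraries, the median of chromosome 8 ran from -0.23 in the Suz12 knock-out to -0.09 in CSex4. The other autosomes lay between -0.15 and -0.03 in that knock-out and between -0.08 and 0.05 in CSex4. In the knock-out carrying the long isoform chromosome 8 was at -0.14, with the other autosomes between -0.11 and 0.01. In the remaining ESC tables it lay inside the range of the other autosomes.

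Genes of the Y chromosome varied between libraries within both groups. Eif2s3y, a Y-linked translation factor gene, had 1695, 56.5 and 1876 normalised reads in WT a, b and c and 2036 and 1.06 in Deltaex4 a and b. WT b and Deltaex4 b thus had little Y-linked RNA, and Ddx3y and Uty had that pattern too. Genes of the X chromosome had a median of -0.11, with -0.20 from the WT mean in Deltaex4 a and -0.02 in Deltaex4 b. By expression level, the median ran from 0.20 in the lowest 10% of genes by baseMean to -0.16 in the highest 10%, where 1171 of 1459 genes lay below 0, and where the median from the WT mean was -0.24 in Deltaex4 a and -0.06 in Deltaex4 b.

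**Figure D5:**
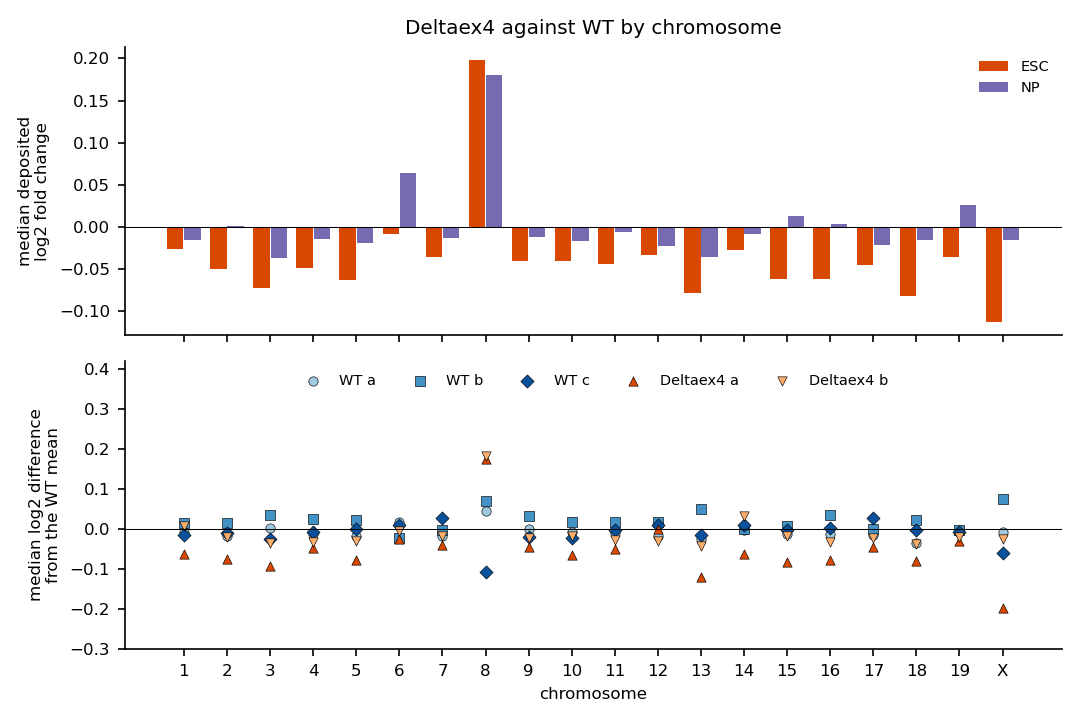
Top, the median deposited log2 fold change (y axis) of Deltaex4 against WT per chromosome (x axis) in ESC and in NP, over genes with a baseMean of at least 100; chromosome 8 reaches 0.20 and 0.18. Bottom, the median log2 difference from the mean of the 3 WT libraries in each ESC library; both Deltaex4 libraries lie at 0.18 on chromosome 8.

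The deletion was also studied in NP, made from the ESC with retinoic acid from day 4 and harvested on day 8, where the authors' deposited table called 14 of 15848 genes (0.0883%). The difference between the ESC and NP log2 fold changes was tested per gene over 14078 genes with a baseMean of at least 10 in both tables, and 1 gene passed a Benjamini-Hochberg adjusted p of 0.05 (0.0071%). At an unadjusted p under 0.05 there were 167 genes (1.19%). The gene that passed was Stra8, for which the authors' deposited tables give 2.09 ± 0.76 in ESC and -2.20 ± 0.30 in NP (difference 4.29, adjusted p 0.00192). Sohlh2, a germ cell transcription factor, had 1.28 ± 0.76 in ESC and -2.31 ± 0.46 in NP (adjusted p 0.284), and Otx2 had 1.05 ± 0.51 and 4.05 ± 0.55 (adjusted p 0.284), both in the authors' deposited tables. Neurod1 (-2.52 in ESC, 0.55 in NP), Nrcam, a neuronal adhesion molecule (-2.90 and 0.62), and Dll1, a Notch ligand (-2.02 and 0.74), had the next largest statistics of the difference with a lower value in ESC, from the authors' deposited tables, and none passed the adjustment. Across the 14078 genes Spearman's rho between ESC and NP was 0.15 and Pearson's r 0.07, a description over genes that are not independent replicates.

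Lists in NP took other values than in ESC. The germline median was 0.53 in ESC and -1.17 in NP, the neural median -0.21 and 0.84, and the formative median -0.35 and 0.25. The p53 target median was -0.31 in ESC and -0.14 in NP, and the PRC2 core median -0.34 and -0.15. Suz12 itself had -0.61 ± 0.33 in NP in the authors' deposited table. These medians were set side by side and their differences were not tested.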

How the data were processed

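PolyA RNA of 2 ESC Deltaex4 and 3 ESC WT samples was compared; groups came from the sample titles. Per the submitters' processing notes, Bowtie, TopHat, DESeq2 and DiffBind were used with builds mm10 and dm3, without versions. In the authors' deposited tables baseMean is a signal (mean reads over size factors), the fold change and its standard error are log2 values, the deposited statistic is a score, and each deposited p-value, adjusted or not, is from DESeq2 with a replicate pairing (the files' names say paired). The region lists' deposited values were not used.

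Because baseMean is a sum of whole reads times 1 fixed step per library, and 7 ESC tables share the WT libraries, reads were recovered by lattice reduction (checked on simulated data, up to a baseMean of 64000); genes with recovered reads hold 88.6% of the summed baseMean. Libraries were lettered by size factor. Genes with 1 read in each of 2 libraries had the lowest deposited standard errors for WT b with Deltaex4 a and WT c with Deltaex4 b (4.888). The crossed pairs had 4.994 (WT b with Deltaex4 b) and 4.990 (WT c with Deltaex4 a). Pairs within a group, WT b with WT c and Deltaex4 a with Deltaex4 b, had 4.892. What is called the authors' pairs is an inference from these values and is not stated by the labels. Log2 values used a pseudocount of 1, and refits used limma 3.58.1 with a mean-variance trend, checked on simulated data, in place of the count model foreseen had counts been deposited; z tests used scipy 1.17.1.

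Gene lists, members and rules were chosen with earlier results of these data known. Named were Suz12, up to 4 members per list with the largest statistic plus defining members, the 12 highest and 12 lowest statistics at a baseMean of at least 100, and the 5 genes each way with the largest ESC against NP difference. The list of mitochondrially encoded genes matched no symbol. Positions and promoters came from RefSeq (GRCm38.p6). A comparison by promoter CpG over all genes is not given here, and 78.8% of tested genes had a promoter window. Not every gene list is reported here.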

Additional observations from a re-analysis of the deposited data

Results flagged for a closer look

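One gene differed between the cell types in the test of the difference itself. For Stra8 the log2 fold change of Deltaex4 against WT in ESC minus that in NP was 4.29 (Benjamini-Hochberg adjusted p 0.00192 over 14078 genes). In ESC it was higher in Deltaex4 a than in any other library (1034 normalised reads, against 120 in Deltaex4 b and 42.9 to 112 in WT), and in NP the authors' deposited table gives a log2 fold change of -2.20 ± 0.30. The ESC side of the difference therefore rests largely on 1 library. Groups of 2 and 3 samples are too small for a check of single outlying samples.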

How the results depend on the processing

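No gene was called in the authors' deposited table at an adjusted p of 0.05 or 0.1, or with p adjusted over genes with a baseMean of at least 10; dividing the statistic by its robust SD gave 135 calls (68 higher, 67 lower). In limma, with no replicate block or with it, 0 genes were called, and with 1 library left out between 0 and 1 (the 1 without Deltaex4 a). Genes with an unadjusted p under 0.05 numbered 134 as deposited, 36 at a threshold of 0.01, 531 with limma and no replicate block, 540 with a pseudocount of 8, 638 over 15 libraries, and 79 with the authors' replicate block. The WT b minus WT c and Deltaex4 a minus Deltaex4 b differences had a correlation of -0.59 across 11033 genes, so the crossed replicate block was also fitted, with 0 calls and 1523 genes with an unadjusted p under 0.05. With 1 library left out there were 219 to 1667 such genes (1667 without Deltaex4 b, 828 without WT c); the cause was not tested. Over the alternatives, the median ran from -0.15 to -0.03 for genes at both regions, from 0.11 to 0.22 for chromosome 8, from -0.24 to -0.06 for the highest 10% of baseMean, and from -0.04 to 0.02 for all genes. Of 428 list medians under alternatives, 43 (in 26 lists) changed sign, while 13 lists kept theirs. Sign changes included the endoderm list without WT c (0.60) or without Deltaex4 b (0.19) and the germline list without Deltaex4 a (-0.02). At the deposited median standard error, log2 changes under 0.94 do not reach an unadjusted p of 0.05.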
